A study of Mus musculus with 8 samples.

Results

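The genes described here are 9 transcription factors of endothelial cells, the cells that line blood vessels: the ETS family members Erg, Fli1, Ets1, Ets2 and Elk3, the SOXF family members Sox7, Sox17 and Sox18, and the basic helix-loop-helix factor Tal1. They were read through every probe set annotated to one of these symbols and to no other gene, 21 of the 45101 probe sets on the array, for 9 of 18194 genes. A probe set is a group of short probes read together as a single value; 7 of the 9 genes had several and 2 had 1. RNA came from 8 newborn mouse brains at postnatal day 1, 1 array per brain, from vessel fragments with attached pericytes pulled out of dissociated tissue by magnetic beads carrying an anti-PECAM antibody. The 4 mutant brains carried the D849V knock-in allele of Pdgfrb, which leaves this pericyte receptor permanently active, and the 4 control brains were wild type; both groups shared a mixed 129S/J background. The labels call the arrays biological replicates but give no litter, sex or day of preparation, and they do not say whether the mutants carried 1 or both copies of the allele. The Y-linked genes Eif2s3y, Kdm5d and Uty read 2.18 to 2.30 on mutant array 2 and control arrays 1 and 4. On every other array they read 6.45 or more, so each group held both sexes.

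ETS factors bind DNA at a GGAA core and are needed for nearly every endothelial gene programme: ERG and FLI1 keep mature vessels stable, ETS1 and ETS2 act downstream of growth factor signalling, and ELK3 is a ternary complex factor that can repress genes until it is phosphorylated. SOXF factors bind a related set of vascular enhancers through an HMG box, and SOX7, SOX17 and SOX18 share roles in arterial and lymphatic development. TAL1 pairs with E proteins, LMO2 and LDB1 to start blood and endothelial programmes in the embryo. Several of these factors also work in blood cells.

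Erg was the member with the clearest difference, and its RefSeq gene model (GRCm38.p6) has 3 annotated starts, all on the minus strand. The table of RefSeq promoter sequences held 4 of the 9 members (Erg, Ets2, Elk3 and Tal1), with 7 windows in all. The 250 bases before the outermost and the innermost Erg start are printed because Erg is both a member that fell and a factor of the family that reads GGAA. Capitals mark each match, on either strand, to the ETS core GGAA. They also mark the SOX form ACAATG, searched on both strands. A second SOX form, ACAAAG, was searched in the same way. No match in these windows overlaps another.
Erg, outermost start, chr16:95586594-95586843, minus strand: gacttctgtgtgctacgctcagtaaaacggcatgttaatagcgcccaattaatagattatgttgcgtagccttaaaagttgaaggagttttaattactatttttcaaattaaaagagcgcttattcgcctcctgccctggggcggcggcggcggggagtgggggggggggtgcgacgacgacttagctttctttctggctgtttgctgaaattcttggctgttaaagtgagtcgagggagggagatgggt
Erg, innermost start, chr16:95459349-95459598, minus strand: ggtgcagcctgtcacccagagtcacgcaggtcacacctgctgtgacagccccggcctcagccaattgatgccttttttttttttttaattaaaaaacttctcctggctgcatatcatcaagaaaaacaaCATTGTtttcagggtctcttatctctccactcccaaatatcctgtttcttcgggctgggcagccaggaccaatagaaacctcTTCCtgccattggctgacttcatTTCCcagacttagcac
The outermost window held no match, and the innermost held 2 GGAA matches and 1 ACAATG match. The Erg window between these held 4 GGAA matches, those of Tal1 held 4 and 3, that of Elk3 held 2 and that of Ets2 held 1, and no window but the innermost of Erg held either SOX form. Of all 32851 promoter windows of this length, 93.4% held GGAA, 10.7% ACAATG and 16.5% ACAAAG, so a GGAA match is common and its absence from the outermost Erg window is the rarer state. A match is a description of the letters and no evidence of binding, and the arrays do not tell which Erg start the transcripts came from. Erg and Ets2 are next to each other in the RefSeq gene order, and so are Fli1 and Ets1.

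Of the 9 factors, Erg and Sox17 fell in the mutant microvessels and none rose (limma, p-values adjusted over 11446 genes by Benjamini-Hochberg, threshold 0.05). That is 2 of 9, where 4.58% of all tested genes passed in either direction, 1.92% lower and 2.66% higher. All 9 differences were negative as deposited, against 69.1% of all tested genes, though those of Fli1, Ets1 and Tal1 were 0.000, 0.030 and 0.024 with arrays centred on their endothelial markers. Under that centring neither Erg nor Sox17 passed (limma adjusted p = 0.316 and 0.552), as described further on. The median of the 9 was -0.32 on the log2 scale, against -0.11 for all tested genes. In 5 of the 9 every mutant array was below every control array, a separation seen in 10.4% of all tested genes, with the reverse in none of the 9 and 4.07% of all. Values are log2 expression values as deposited, so a difference of -1 would be a halving of the signal. These are bulk preparations, in which a smaller endothelial share of the RNA and less RNA of a factor per endothelial cell cannot be told apart.

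**Figure D1:**
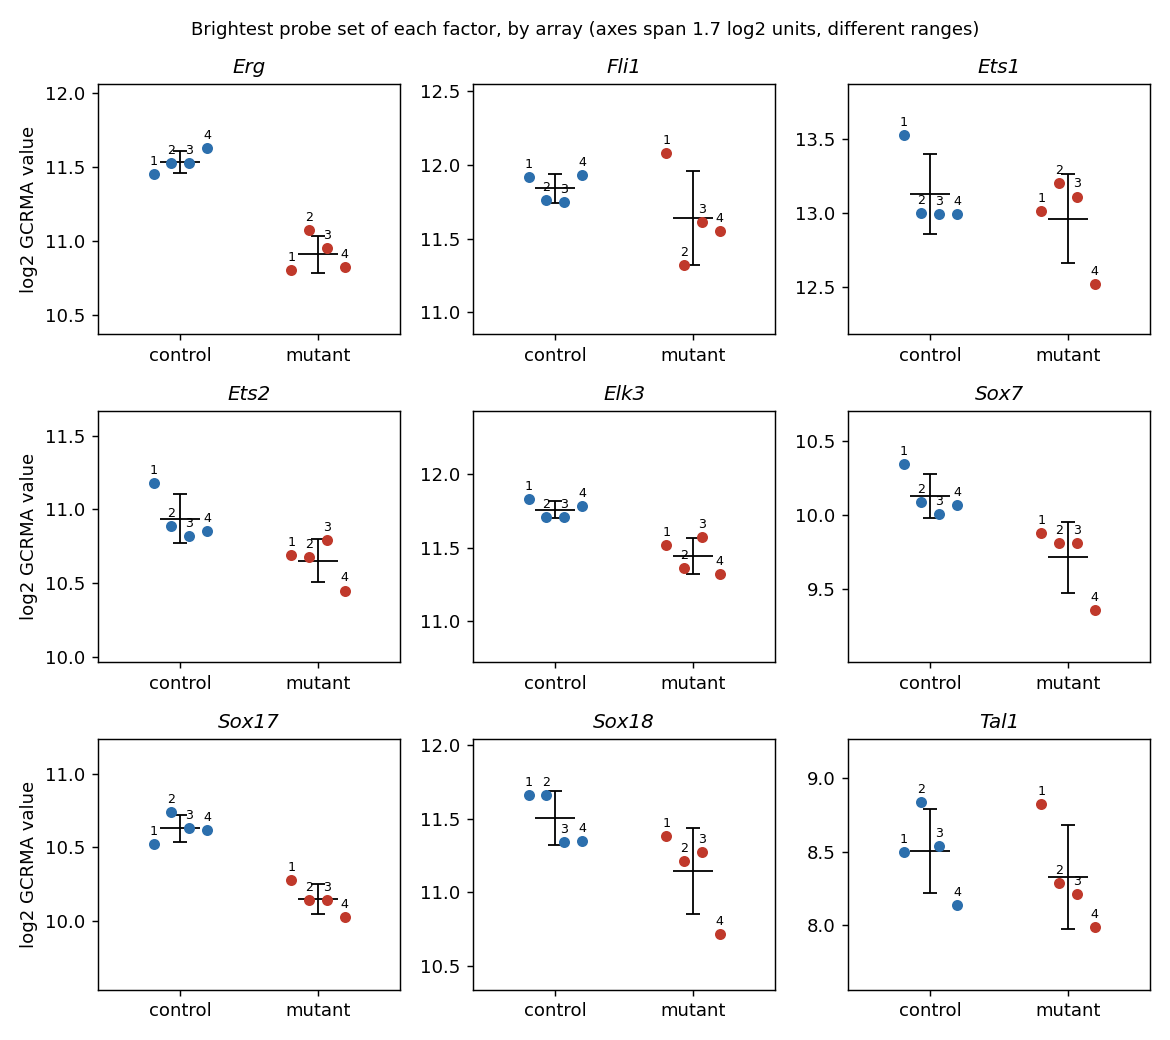
Log2 expression value of the brightest probe set of each of the 9 factors on the 4 control (blue) and 4 mutant (red) arrays; points are arrays with their replicate number, and bars are the mean ± SD (n = 4). The groups do not overlap for Erg, Ets2, Elk3, Sox7 and Sox17, and mutant array 4 is the lowest mutant array in 7 of the 9 panels.

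Erg, which holds endothelial junctions and identity in place, read 10.80, 11.07, 10.95 and 10.82 on mutant arrays 1 to 4 and 11.45, 11.53, 11.53 and 11.63 on control arrays 1 to 4. The gap between the groups was wider than the spread within either. The difference was -0.63 (SE 0.091, 95% confidence interval -0.83 to -0.42, limma adjusted p = 0.00561), which leaves the mutant signal at 64.8% of the control signal. A second, dimmer Erg probe set read 4.55, 4.65, 5.04 and 4.50 in mutants and 6.32, 5.61, 5.26 and 4.69 in controls. Its difference pointed the same way, by -0.79, but control array 4 lay among the mutant values and it did not pass (SE 0.317, limma adjusted p = 0.273 over 22310 probe sets). With any 1 of the 8 arrays left out, Erg remained below the threshold, with limma adjusted p from 0.00809 to 0.0271. The call was lost with arrays centred on their endothelial markers (-0.43, limma adjusted p = 0.316).

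Fli1, the closest relative of Erg, did not pass. It read 12.08, 11.32, 11.61 and 11.55 in mutants against 11.92, 11.76, 11.75 and 11.93 in controls, and mutant array 1 was the highest of all 8. The difference was -0.20 (95% confidence interval -0.56 to 0.16, limma adjusted p = 0.505), an interval on both sides of 0. It was -0.34 without mutant array 1 and -0.09 without mutant array 2. Its dimmer probe set differed by -0.47 (limma adjusted p = 0.491 over all probe sets), with control array 1 at 9.69 and the other controls between 8.38 and 8.54. The difference of Erg minus that of Fli1 was -0.43 (exact permutation p = 0.0857, two-sided, adjusted p = 0.279 over 13 pairs of family members). No pair within the ETS or SOXF family passed in that comparison, which was added after the values were seen. The 70 assignments of arrays allow no exact permutation p under 0.0286. A single pair could therefore not pass after adjustment, and the comparison describes more than it tests.

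Ets1, a factor of angiogenic endothelium that is also expressed in lymphocytes, showed the smallest difference of the ETS members. Its brightest probe set read 13.01, 13.20, 13.11 and 12.52 in mutants and 13.53, 13.00, 12.99 and 12.99 in controls, a difference of -0.17 (95% confidence interval -0.59 to 0.26, limma adjusted p = 0.636). The groups overlapped, and 1 array stood apart on each side, mutant 4 at the bottom and control 1 at the top; the difference was -0.020 without the former and -0.033 without the latter. The next probe set differed by -0.16, and every mutant value there, from 12.61 to 12.96, was below the controls at 12.97 to 13.04. The other Ets1 probe sets differed by -0.43 and by less than 0.01 in size, both with confidence intervals that span 0.

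Ets2 and Elk3 were lower on every mutant array than on any control array without passing the test over all genes. Ets2, which is switched on by growth factor signalling, read 10.69, 10.68, 10.79 and 10.45 in mutants and 11.18, 10.89, 10.82 and 10.85 in controls, a difference of -0.28 (SE 0.115, limma adjusted p = 0.213). Mutant array 3 and control array 3 nearly met. The other bright enough Ets2 probe set also separated the groups, at 5.39 to 5.65 against 5.77 to 6.31 (difference -0.46, limma adjusted p = 0.147 over all probe sets), and the remaining one, between 2.19 and 2.21 throughout, was too dim to test. Elk3 read 11.52, 11.36, 11.57 and 11.32 in mutants and 11.83, 11.71, 11.71 and 11.78 in controls. Its difference was -0.32 (SE 0.088, 95% confidence interval -0.52 to -0.12, limma adjusted p = 0.0898). A second Elk3 probe set separated the groups as well, at 9.15 to 9.33 against 9.44 to 9.77 (difference -0.37, limma adjusted p = 0.127 over all probe sets), while the other pair of Elk3 probe sets differed by -0.15 and -0.16 with overlapping groups.

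Among the SOXF factors, Sox17, a regulator of arterial identity and of the Wnt response in brain vessels, was the member that passed. It read 10.28, 10.14, 10.14 and 10.03 in mutants and 10.52, 10.74, 10.63 and 10.62 in controls, so the groups were clearly apart. The difference was -0.48 (SE 0.088, 95% confidence interval -0.69 to -0.28, limma adjusted p = 0.0194), and the mutant signal was 71.6% of the control signal. A second Sox17 probe set read 9.01 to 9.52 in mutants against 9.73 to 10.04 in controls, again without overlap (difference -0.55, limma adjusted p = 0.0973 over all probe sets). The brighter probe set carries the suffix _x, given to sets with some probes that also match other transcripts. The call was less secure than that of Erg: it held in 3 of the 8 fits that left out 1 array, and the limma adjusted p was 0.0521 without mutant array 2, 0.0749 without mutant array 3, 0.0540 without control array 2, 0.0633 without control array 3 and 0.0667 without control array 4.

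Sox7 read 9.88, 9.81, 9.81 and 9.36 in mutants and 10.35, 10.09, 10.01 and 10.07 in controls, and its groups did not overlap. Mutant array 4 lay far under the others. The difference was -0.41 (SE 0.137, 95% confidence interval -0.73 to -0.10, limma adjusted p = 0.141) and -0.30 without mutant array 4. The dimmer Sox7 probe set separated the groups too, though mutant array 2 and control array 2 nearly met (difference -0.57, limma adjusted p = 0.118 over all probe sets). Its limma adjusted p was 0.0300 without mutant array 2 and from 0.158 to 0.301 with any other array left out. Sox18, a factor of early lymphatic and vascular development with 1 probe set, read 11.38, 11.21, 11.27 and 10.72 in mutants and 11.66, 11.66, 11.34 and 11.35 in controls. Its groups overlapped by 1 array, and the difference was -0.36 (95% confidence interval -0.72 to 0.01, limma adjusted p = 0.257), or -0.21 without mutant array 4, a change by more than 1.5 times.

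Tal1 was the member with the most mixed arrays. Its single probe set read 8.82, 8.29, 8.21 and 7.99 in mutants and 8.50, 8.84, 8.54 and 8.14 in controls. Each group held a value near the top and a value near the bottom of the range, and the difference of -0.17 was under either group's SD (0.35 for the mutants, 0.285 for the controls; limma adjusted p = 0.657, 95% confidence interval -0.64 to 0.29). It was -0.34 without mutant array 1, -0.061 without mutant array 4, -0.062 without control array 2 and -0.29 without control array 4.

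**Figure D2:**
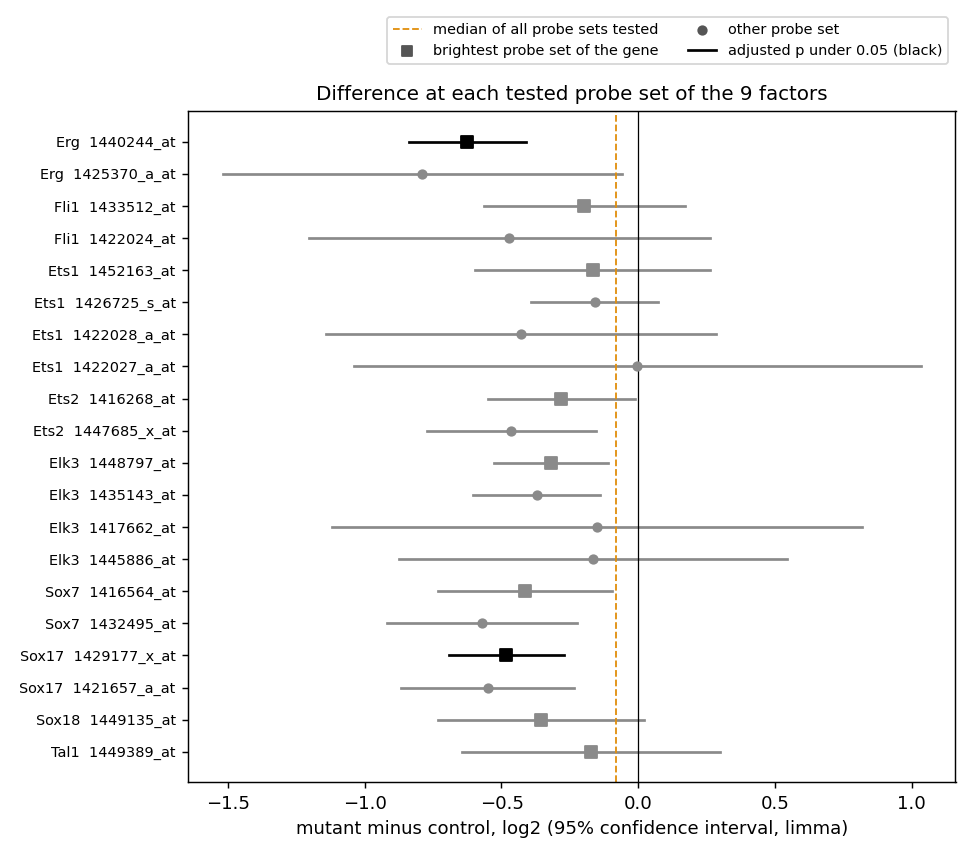
Mutant minus control difference, in log2 units, with its 95% confidence interval for each of the 20 tested probe sets of the 9 factors; squares are the brightest probe set of a gene, circles the others, and black marks those with a limma adjusted p under 0.05 over all probe sets. All 20 points lie to the left of 0, and the 2 black ones are the brightest probe sets of Erg and Sox17.

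Read probe set by probe set, 20 of the 21 were bright enough to test and all 20 differences were negative as deposited, against 64.6% of the 22310 probe sets tested. With arrays centred on their endothelial markers, 13 of 20 were negative and none passed. The smallest difference as deposited, in Ets1, turned positive there and with arrays centred on the median of the tested genes (0.086). It was 0.074 after a second quantile normalization and -0.032 with arrays centred on their own median. The 20 probe sets share samples and, within a gene, transcripts, so they are not independent readings. As deposited, the brightest probe sets of Erg and Sox17 passed here as well (limma adjusted p = 0.00973 and 0.0323), 2 of 20 where 2.63% of all probe sets passed, 0.78% lower and 1.85% higher. In 10 of the 20 the groups did not overlap with the mutants lower, a separation seen in 7.99% of all probe sets, and the reverse, in 3.27% of all, was seen in none of the 20. Of these, 5 were the dimmer probe sets of genes whose brightest one is given above: those of Ets1, Ets2, Elk3, Sox7 and Sox17.

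The arrays differed in how much endothelial signal they carried. The mean of 23 endothelial markers that are not transcription factors, such as the tight junction gene Cldn5 and the VEGF receptor gene Kdr, read 11.74, 11.67, 11.69 and 11.27 on mutant arrays 1 to 4 and 11.93, 11.82, 11.66 and 11.74 on the controls. Mutant array 4 was the lowest and it was also the lowest of all 8 arrays for 7 of the 9 factors, Erg and Fli1 being the exceptions. The groups' marker means differed by -0.20, and by -0.09 without mutant array 4. Of the 23 markers, 1 passed and fell: Slco1a4, an organic anion transporter of the blood-brain barrier (-0.77, limma adjusted p = 0.0306). Another 5 had an unadjusted limma p under 0.05, all of them lower, where 15.3% of all tested genes were lower at that level. Of the 23 differences, 20 were negative, against 69.1% of all tested genes, and the median of the list was -0.23.

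**Figure D3:**
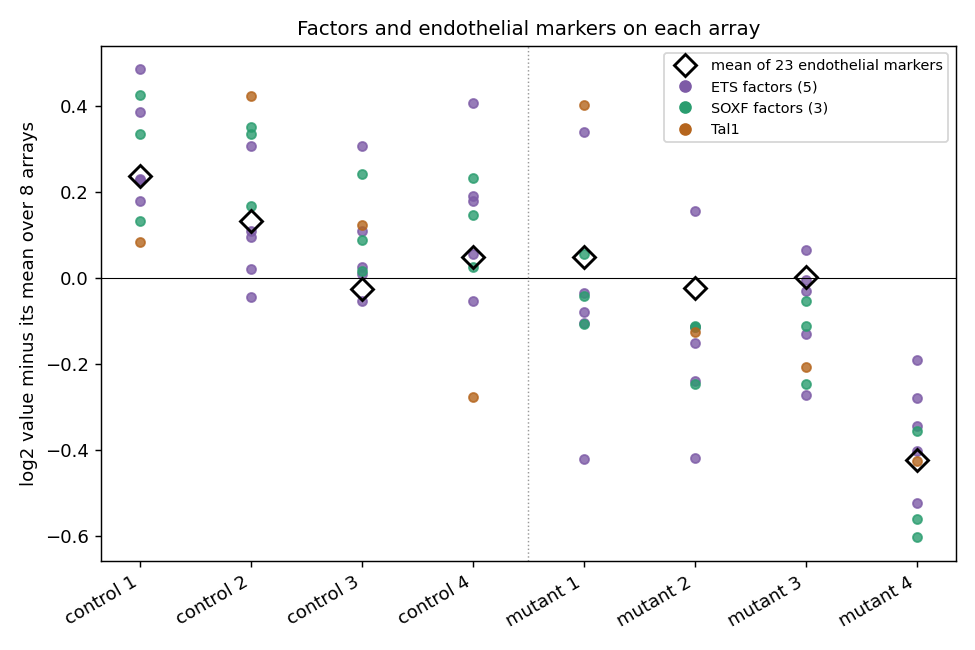
Log2 value of each factor minus its own mean over the 8 arrays (dots, by family) and the mean of 23 endothelial markers treated the same way (open diamonds), by array. The diamond of mutant array 4 lies at -0.42, while those of the other mutant arrays lie between -0.02 and 0.05 and those of the controls between -0.02 and 0.24.

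Set against that marker mean on the same array, Erg read -0.94, -0.59, -0.75 and -0.45 on the mutant arrays and -0.47, -0.29, -0.13 and -0.11 on the controls. The difference of Erg shrank from -0.63 to -0.43, and mutant array 4 came to lie just inside the control values (exact permutation p = 0.0571, two-sided, adjusted p = 0.129 over the 9 factors). Sox7 gave the tightest reading on this scale: its values minus the marker mean were -1.86, -1.86, -1.88 and -1.90 in mutants and -1.58, -1.73, -1.66 and -1.67 in controls, without overlap. Its relative difference was -0.22 (exact permutation p = 0.0286, two-sided, as low as 70 assignments can go, adjusted p = 0.129). Sox17 (-0.28) and Sox18 (-0.16) were lower relative to the markers as well, each with an exact permutation p of 0.0571 and an adjusted p of 0.129. Ets2 (-0.08) and Elk3 (-0.12) were within the spread, and Fli1, Ets1 and Tal1 differed by at most 0.03, with exact permutation p of 0.771 or more. None of the 9 passed after adjustment. A single factor at the smallest exact permutation p, 0.0286, could not pass over 9 factors, so this comparison describes more than it tests. None of the 9 passed either in the limma fit over all genes with every array centred on these markers, given above for Erg and Sox17. The markers are themselves endothelial transcripts with a negative median, so this scale takes away any change they share with the factors. Without mutant array 4 the relative difference of Erg was -0.51 and that of Sox17 -0.35.

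Genes of the same families and partners were counted next. The lists came from general knowledge but were chosen with earlier results of these data known. Of 8 other ETS genes bright enough to test, Gabpa, the DNA-binding subunit of the GA-binding protein, fell (-0.41, SE 0.091, limma adjusted p = 0.0449) and none rose, with a list median of -0.20. The 11 others on the array that were not tested include Etv2, the factor that starts the embryonic vascular programme, which lay at the floor on all arrays, and Spi1, the myeloid ETS factor, which read 2.94 to 3.66 in mutants and 2.38 to 2.94 in controls. Of 12 other SOX genes none passed (limma, 1 at an unadjusted p under 0.05) and the median was 0.05. The brightest of them were Sox4 (mutants 12.96 ± 0.17, controls 13.20 ± 0.14) and the neural stem cell factor Sox2 (10.29 ± 0.63 against 10.20 ± 0.38, all SD, n = 4). Of 11 TAL1 partner genes, the corepressor Cbfa2t3 fell (-0.53, SE 0.114, limma adjusted p = 0.0364) and none rose; the median was -0.13. Runx1, a blood and myeloid factor in that list, read 6.26 to 6.46 in mutants and 4.15 to 5.83 in controls and did not pass (1.37, limma adjusted p = 0.0937).

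**Figure D4:**
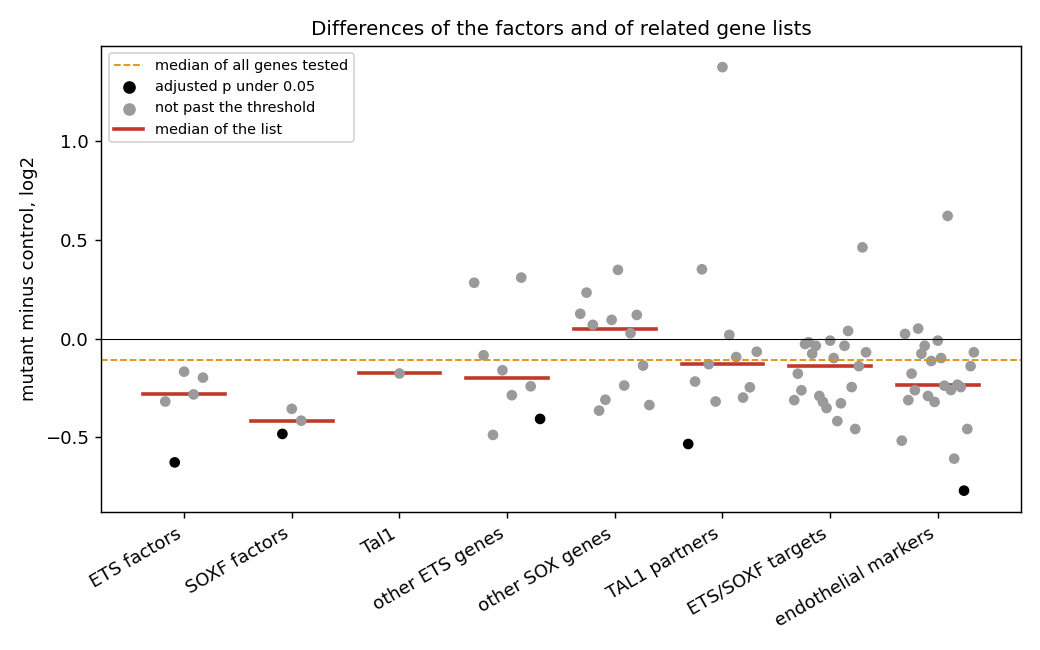
Mutant minus control difference, in log2 units, of each tested gene in the ETS, SOXF and Tal1 groups and in 5 related lists; black dots have a limma adjusted p under 0.05, red bars are list medians and the dashed line is the median of all tested genes, -0.11. The SOXF bar lies at -0.41 and the ETS bar at -0.28, against -0.14 for the ETS and SOXF target genes and -0.23 for the endothelial markers.

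Known endothelial targets of ERG, other ETS factors or SOXF factors gave no call. Of the 21 tested, 0 passed limma's test, 5 were lower and 1 was higher at an unadjusted p under 0.05, 19 of 21 differences were negative and the median was -0.14. Of all tested genes, 15.3% were lower at that unadjusted level and 69.1% were negative. The VE-cadherin gene Cdh5 read 11.33 ± 0.22 on mutant arrays against 11.64 ± 0.28, and Cldn5 14.39 ± 0.12 against 14.57 ± 0.09 (SD, n = 4). Tek, the angiopoietin receptor gene, came closest among those that were lower, at 12.16 to 12.61 against 12.80 to 13.03 (-0.46, limma adjusted p = 0.0702). Vcam1, a leukocyte adhesion molecule, was the one that was higher, at 10.56 to 10.87 against 10.13 to 10.46 (0.46, limma adjusted p = 0.0539). The list shares 13 genes with the endothelial markers, so the 2 are not separate evidence.

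Markers of blood and immune cells, in which some of these factors also work, were read beside the factors. Of 15 microglia and macrophage markers tested, 11 rose and none fell, and the summed linear signal of the list was 13370 to 23380 on mutant arrays and 5028 to 7512 on controls. The platelet gene Pf4, which macrophages also express, rose by 0.96 (limma adjusted p = 0.0229), 1 of 4 platelet and megakaryocyte markers tested (summed signal 1744 to 3047 against 1137 to 1465), and Gp5 was at the floor. Of 4 erythroid markers tested, the transferrin receptor gene Tfrc, also a blood-brain barrier gene, fell by 0.63 (limma adjusted p = 0.0311). The others tested, Hbb-y, Slc4a1 and Alas2, differed by 1.12, 0.18 and 0.02 without passing, and the list median was 0.10. Hba-a1, Klf1, Gata1 and Rhag were at the floor on all arrays. The summed signal was 10950 to 14880 against 17980 to 23930. It came mostly from Tfrc, with log2 means of 13.63 in mutants and 14.27 in controls. Alas2, the next brightest by mean, had 6.71 and 6.68. Of 11 lymphocyte markers, 9 were on the array and 6 of them, Cd3e, Cd3d, Cd3g, Cd2, Cd79a and Ncr1, were at the floor on all arrays (summed signal 78.5 to 160.4 against 65.3 to 91.0). Interferon response genes rose in 22 of 23 tested, with summed signals of 85070 to 115700 against 2899 to 4435. The part of these cells and of this response in the values of the factors was not tested. Pericyte and mural markers were mixed, with Higd1b higher and Pdgfrb lower among 13 tested (46370 to 59770 against 53410 to 69040). Pdgfrb is the gene that carries the mutant allele, so its value is not that of an ordinary marker. No neuron marker passed (9 tested, limma, 2 higher at an unadjusted p under 0.05, 2649 to 4725 against 2050 to 3784). No astrocyte marker passed either (9 tested, limma, 0 at that level, 55370 to 80420 against 60510 to 69610).

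Profiles over the 8 arrays were compared by the root mean square difference between genes, each centred on its own mean, as a description without a test. The genes nearest to Erg were the receptor tyrosine kinase Ret (0.054), the sphingomyelin synthase Sgms1 (0.077), the endothelial junction gene Jcad (0.085), the zinc transporter Slc39a10 (0.086) and the ubiquitin ligase Rnf144b (0.088), where the values of Erg spread by 0.33 around their mean on the same measure. Nearest to Sox17 were the endothelial adhesion receptor Adgrl4 (0.077), Msrb3 (0.081), Rapgef3, which encodes a cyclic AMP sensor (0.084), Inafm2 (0.087) and the sialyltransferase St8sia4 (0.089), against a spread of 0.26. None of these 10 is one of the factors. Within the 9, the closest pairs were Ets2 with Elk3 (0.093) and Sox7 with Sox18 (0.095). Among all tested genes, 76 lay nearer to Ets2 than Elk3 did and 57 nearer to Elk3 than Ets2 did, against 9 nearer to Sox7 than Sox18 and 7 nearer to Sox18 than Sox7. The factor nearest to Erg was Sox17 (0.139), with 69 tested genes nearer.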

How the data were processed

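RNA was measured on 8 single-colour Affymetrix arrays, per the labels' protocols from 6 ug of total RNA each. The authors' deposited table gives log2 values; the submitters' processing notes name GCRMA without a version. The log2 scale was read from the values. GCRMA corrects background by probe sequence and normalizes by quantiles, so dim probe sets collect at a floor (lowest value 2.18) and are not resolved; arrays have no depth, and 4 per group limit the precision. Each of 18194 genes with a single symbol was read through its probe set with the highest mean. Genes above 4 on at least 4 arrays (11446), and likewise all probe sets (22310), were compared in limma 3.58.1 (R 4.3.3; lmFit, then eBayes), two-sided and Benjamini-Hochberg adjusted at 0.05. Values relative to endothelial markers used exact permutation tests. The fit was tested on simulated data. Summed signals add 2 to the power of each log2 value. "At the floor" means within 0.5 of the lowest value.

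The factors and lists were chosen with earlier results of these data known. All 9 factors were named with all their probe sets; from other lists, up to 3 called genes of smallest p, otherwise the 2 brightest; for Erg and Sox17, the 5 nearest profiles. Tek was among the 2 brightest target genes, and was described as closest with its value in view. Cdh5, Vcam1, Runx1, Etv2 and Spi1 were picked with their values in view. Kdr, Uty, Hbb-y, Slc4a1, Alas2 and the genes at the floor were named outside this rule. Of the microglia, interferon, neuron and astrocyte lists only counts and summed signals are given, and the lymphocyte marker that was tested is not named. Sequences and gene order come from RefSeq, GRCm38.p6. Alternatives were other filters, scalings, probe set rules, error models, a Y-linked covariate, a replicate block, a threshold of 0.01 and each array left out; centring on the median of the tested genes, and the settings of the permutation comparisons, were added after seeing the data.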

Additional observations from a re-analysis of the deposited data

Results flagged for a closer look

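Of 40 groups of 4 arrays checked across the 20 tested probe sets, 3 held an array far from the other 3 by Dixon's criterion, where chance alone marks about 1 in 20. In Sox7, mutant array 4 read 9.36 on the brightest probe set against 9.81 to 9.88 on the other mutant arrays; on the same array the mean of the endothelial markers was lowest too. In Fli1, control array 1 read 9.69 on the dimmer probe set against 8.38 to 8.54 on the other controls. In Ets1, control array 1 read 13.53 on the brightest probe set against 12.99 to 13.00.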

How the results depend on the processing

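Erg and Sox17 both passed, and no factor rose, at the gene level without the filter, with a filter at 6, after a second quantile normalization, with arrays centred on their median, with the Y-linked covariate, and with the probe set mean or suffix rule. The suffix rule preferred probe sets without a suffix. It kept the same probe set for every factor, because both Sox17 probe sets carry a suffix, so it could not change their differences. The dimmer Sox17 probe set, without the _x suffix, did not pass in the main fit (limma adjusted p = 0.0973 over all probe sets). The number of factors that fell was 1 with arrays centred on the median of the tested genes (336 genes higher and 115 lower in all, against 304 and 220) and 1 at a threshold of 0.01, both times Erg; it was 0 with arrays centred on their endothelial markers and 4 with array weights (Elk3 and Sox7 added; 895 genes higher and 2263 lower in all). Trend and robust eBayes added Elk3 (limma adjusted p = 0.0499). Of the probe sets, 1 fell under the second quantile normalization, under centring on the tested genes and at 0.01, 0 under endothelial centring and 5 with array weights. Leaving out 1 array gave 1 to 2 genes and 1 to 2 probe sets. Replicate numbers did not pair the arrays (correlations of deviations from -0.48 to 0.30); with the number as a replicate block 0 genes and 0 probe sets passed (Erg limma adjusted p = 0.0610, Sox17 0.128), and 259 genes changed in all against 524. The median over all tested genes moved from -0.11 to 0.09 under endothelial centring. The cause of these changes was not tested.

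Differences that turned positive belonged to factors or probe sets that never passed. Under endothelial centring Fli1 was at 0.000, Ets1 at 0.030, Tal1 at 0.024, dimmer Ets1 probe sets at 0.038 and 0.193 and dimmer Elk3 probe sets at 0.046 and 0.032. With array weights Ets1 was at 0.027, a dimmer Ets1 probe set at 0.280 and an Elk3 one at 0.116. The same Ets1 probe set was at 0.086 with arrays centred on the tested genes, 0.074 after quantile normalization and 0.149 with the Y-linked covariate, where the Elk3 one was at 0.068. With 1 array left out, that Ets1 probe set ranged from -0.278 to 0.313, that Elk3 one from -0.385 to 0.171 and the dimmest Elk3 one from -0.339 to 0.065.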
